A study of Mus musculus with 8 samples.

Results

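The genes of the cytosolic ribosomal proteins were examined in the ventricles of mice 24 hours after myocardial infarction (MI). Members were genes with a RefSeq symbol made of Rpl or Rps and a number, together with Rplp0, Rplp1, Rplp2 and Rpsa. Ribosomal S6 kinases, Rps19 binding proteins and pseudogene symbols were left out. By this rule 85 genes had a probe on the array and 84 of them had a probe detected, that is, well above background, on 4 or more of the 8 arrays. They stand among 15156 genes with such a probe, and among 20145 genes with a symbol on the array. Each gene was represented by its brightest such probe. Neither the symbol rule nor the choice of probe uses the difference between groups. Earlier results of these data were, however, known when the members were chosen.

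The study induced MI in 4 adult male mice of genetic background C57BL\6 by tying off the anterior interventricular artery for good. Another 4 adult male mice of the same background were sham-operated, with all steps of the surgery but the ligation. No genotype other than this background is labelled. Total RNA of the ventricles was taken 24 hours after surgery in both groups and hybridized in 1 colour on mouse SurePrint G3 8x60K arrays, 1 array per mouse. The RNA came from whole ventricles, so infarcted and remote tissue were measured together. In bulk samples, fewer cells of a type and less RNA per cell cannot be told apart.

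A cytosolic ribosome consists of a large 60S and a small 40S subunit, and each ribosomal protein is normally present once per ribosome, apart from the stalk proteins. Synthesis of the proteins is matched to growth conditions mainly at the level of translation. Their mRNAs begin with a C followed by a stretch of pyrimidines, the 5′ terminal oligopyrimidine (TOP) motif, through which mTORC1 controls their translation. In striated muscle, the paralogue Rpl3l takes the place of Rpl3 in a share of the ribosomes. An mRNA level on an array says nothing about translation or about the number of ribosomes.

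To show the pyrimidine stretch, 30 bases around the annotated start of transcription are given for 5 genes named in the results that carry it. They run from 20 bases before the start to the 10 first bases of the transcript, on the strand of the gene. Capitals mark the part of the run of C or T letters that lies in the printed window. The sequences are from RefSeq, build GRCm38.p6. Rpl15 lies at chr14:18270977-18271006 on the minus strand, Rps10 at chr17:27635235-27635264 on the minus strand, Rps6 at chr4:86857358-86857387 on the minus strand, Rplp2 at chr7:141447631-141447660 on the plus strand and Rpl18 at chr7:45718051-45718080 on the plus strand.
Rpl15: ggattgtgggagaaagCCTTCTTCCTTTCC
Rps10: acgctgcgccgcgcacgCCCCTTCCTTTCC
Rps6: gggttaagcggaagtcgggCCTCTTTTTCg
Rplp2: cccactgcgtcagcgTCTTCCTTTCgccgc
Rpl18: acgagtgcgtctcgcaggccgCTCTTTCCC

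For 3 further genes that the results turn on, the same window held no such run, and no letter is in capitals. These are Rplp0 at chr5:115559447-115559476 on the plus strand, Rpl7l1 at chr17:46782647-46782676 on the minus strand and the first of the 2 annotated starts of Rpl3l at chr17:24727806-24727835 on the plus strand.
Rplp0: acgtcgtcttcgggtttcgaggaccgcctg
Rpl7l1: gcccggtgaggctgcgcaagcgcagtagct
Rpl3l: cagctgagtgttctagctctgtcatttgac

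Start regions were matched for 64 of the 85 genes. Rpl3 was among the 21 genes without an entry. A run of at least 8 C or T letters within 5 bases of the annotated start, searched on the strand of the gene alone, was held by 25 of 76 starts, or 32.9%. Among all 32851 starts in the reference, 9.38% held such a run. The median log2 fold change between MI and sham-operated mice was -0.02 for 25 measured genes with the run and 0.03 for 38 without it. The match is a description of letters at annotated starts.

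The arrays were similar in quality. The share of spots detected was 61.4% to 66.4% in MI mice and 58.6% to 65.8% in sham-operated mice. Arrays of the same group correlated at 0.993 or higher over all retained probes. The tissue label was checked with markers: all 12 cardiomyocyte genes examined, among them Myh6 and Tnnt2, were well above background on all 8 arrays. The 84 ribosomal protein probes were well above background on all 8 arrays as well, with none saturated and a median intensity of 93277. Only 4 of them, for Rpl7l1, Rps23rg1, Rpl21 and Rpl39l, had a mean intensity under 1000.

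Values are log2 signals normalized with spike-in RNA, which the authors had added before labeling. These spots gave each array its own scale and an additive constant. The constants were between 166 and 257 in intensity units, and they hold back the fold changes of dim probes. The comparison of the groups used limma with Benjamini-Hochberg adjustment over the 34038 retained probes. For single values an exact permutation test, two-sided, was added, in which 4 against 4 mice cannot give a p below 0.0286. The mice are separate animals, and their number limits the precision of every value.

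As a family, the ribosomal protein genes differed little between MI and sham-operated mice. Only 2 of the 84 genes, Rpl3 and Rpl7l1, rose at an adjusted p under 0.05 (limma), where 3.38% of all retained probes were called higher. None fell by limma, where 0.355% of all probes were called lower. These were also the only 2 of the 84 genes whose groups did not overlap, where 9.04% of all probes had groups apart. Without adjustment, 5 genes had a limma p under 0.05 with higher means in MI mice and 0 with lower means, where 11% of all probes were higher and 4.35% lower at that threshold. Significance analysis of microarrays, the method of the study, here in an own implementation, called no member in either direction, and 1.88% of all probes it tested. No gene passed the study's threshold of a fold over 2, which 0.978% of all probes passed with an adjusted p under 0.05 in limma. The study counted with significance analysis of microarrays on its own normalized values, so this share is not its count.

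The median log2 fold change of the 84 genes was 0.01, beside 0.03 over all retained probes. It was 0.01 for the 51 genes counted to the 60S subunit by an Rpl symbol. For the 33 genes counted to the 40S subunit by an Rps symbol it was -0.0034. Means were higher in MI mice for 43 genes and lower for 41, and the log2 fold changes ran from -0.23 to 0.55. Changes of less than 0.25 in either direction were seen for 78 genes, or 92.9% of the family. Over all genes with a symbol, the share was 70.7%. The median standard error was 0.11, and for 76 genes the 95% interval of the log2 fold change lay wholly between -0.5 and 0.5. At this number of mice, differences smaller than these intervals were not detectable, and larger ones could be missed as well. The interval excluded 0 for 5 genes, and only 2 of these, Rpl3 and Rpl7l1, were called after adjustment. The plots of the fold changes and of their spread beside all genes show this narrow range.

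**Figure D1:**
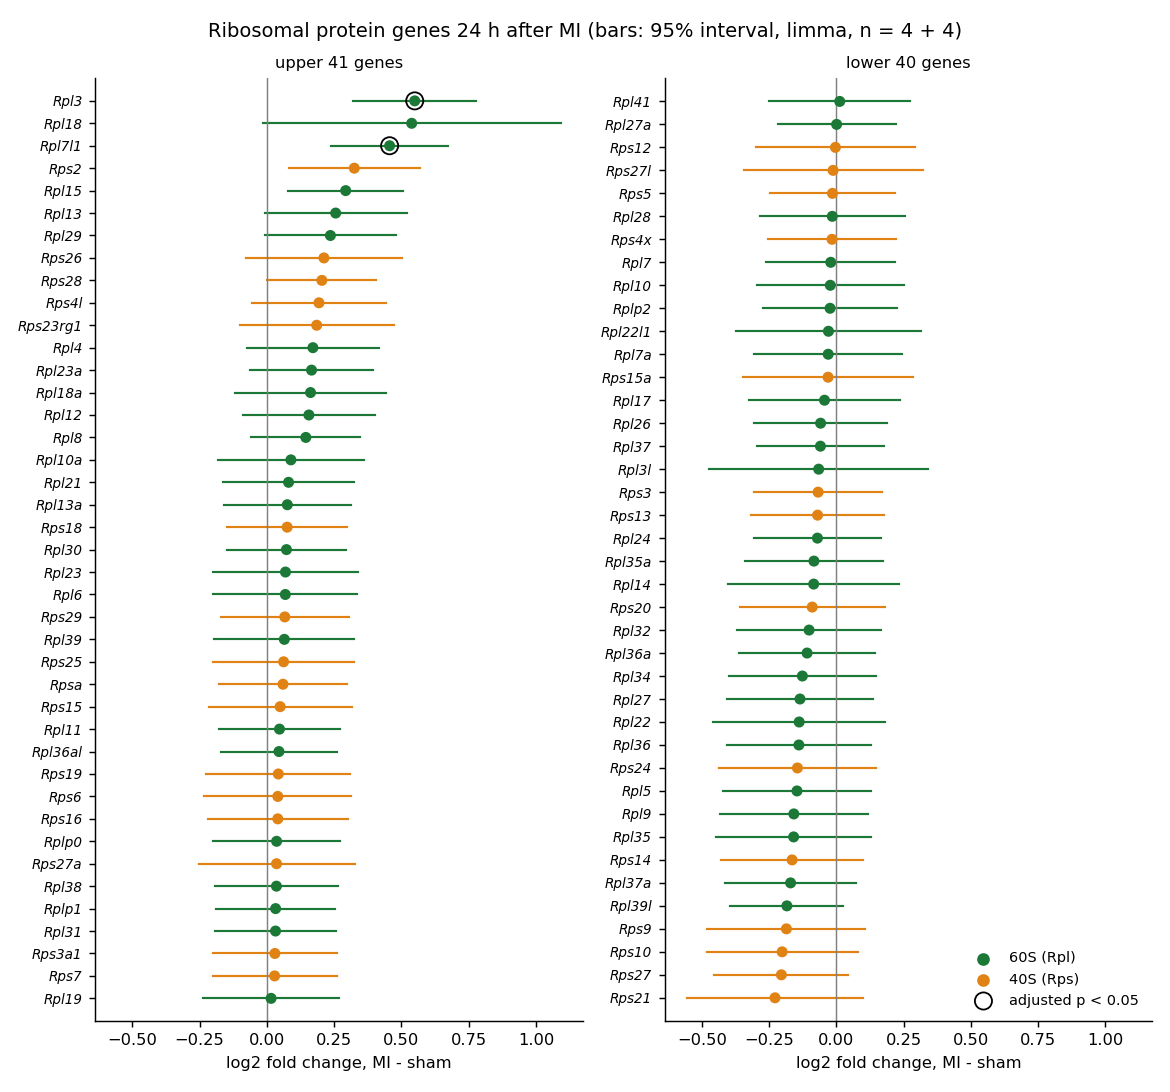
Log2 fold change between MI and sham-operated mice for 81 of the 84 ribosomal protein genes (points) with its 95% interval from limma (bars, 4 mice per group), in order of size. Colours follow the symbol, green for Rpl (60S) and orange for Rps (40S). Circles mark Rpl3 and Rpl7l1, the genes with an adjusted p under 0.05, and the fold changes run from -0.23 to 0.55.

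**Figure D2:**
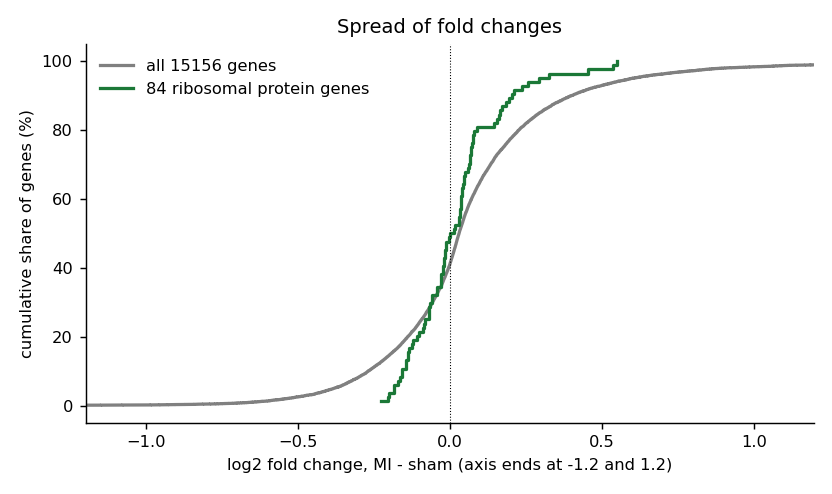
Cumulative share of genes (vertical axis, in percent) up to each log2 fold change between MI and sham-operated mice (horizontal axis), for 84 ribosomal protein genes in green and 15156 genes with a retained probe in grey. The green curve is steeper, with 92.9% of ribosomal protein genes and 70.7% of all genes within 0.25 of 0.

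The level of the whole family moved from mouse to mouse more than between the groups. The median log2 signal of the 84 genes was 16.66, 16.24, 16.63 and 16.48 in MI mice 1 to 4. In sham-operated mice 1 to 4 it was 16.30, 16.52, 16.56 and 16.46. The groups overlapped, with a mean of 16.50 ± 0.19 (SD, n = 4) for MI and 16.46 ± 0.11 (SD, n = 4) for sham. The genes shared these shifts: MI replicate 2 was low for most of them and MI replicate 1 high. Shifts of this kind were not limited to the family. The median log2 signal of all retained probes was 8.81, 8.50, 8.84 and 8.70 in MI mice 1 to 4, again lowest in MI replicate 2. In sham-operated mice 1 to 4 it was 8.72, 8.47, 8.73 and 8.59. Across the 8 mice, the deviation of a gene from its group mean correlated with the median deviation of the other members with a median Pearson's r of 0.893, and r was over 0.8 for 65 of the 84 genes. This is a description, and the points share the array, its labeling and its scale. No such r is given here for other genes, so it is not shown to be particular to the family. The lowest r was -0.10 for Rpl18, whose signal in sham replicate 3 stood apart.

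The direction of the family depended on how the arrays were scaled. With each array scaled to its 75th percentile, 17 genes had higher and 67 had lower means in MI mice, and the median log2 fold change was -0.13, beside -0.02 over all probes. That value rested on sham replicate 2, in which the median member lay 0.43 above its mean over the mice. Without this mouse, the median was -0.01, with 40 genes higher and 44 lower. With the spike-in normalization, leaving out each mouse in turn gave medians from -0.05 to 0.09. In the authors' own normalized values the median was -0.0017, beside 0.09 over all probes. No direction of the family as a whole can therefore be given.

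**Figure D3:**
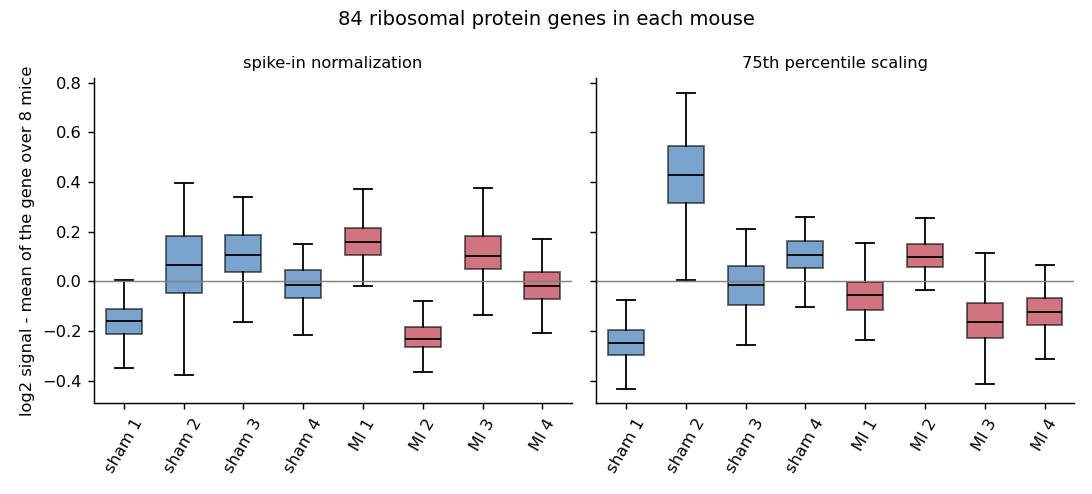
Log2 signal of the 84 ribosomal protein genes in each mouse relative to the mean of the same gene over the 8 mice, with spike-in normalization (left) and with scaling to the 75th percentile (right). Boxes give the quartiles and the median, whiskers reach the farthest value within 1.5 box lengths, blue is sham and red is MI; sham 2 has a median of 0.07 on the left and 0.43 on the right.

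Rpl3, a protein of the large subunit next to the peptidyl transferase centre, had the highest fold change of the family. Its log2 signal was 15.33, 14.94, 15.29 and 15.38 in MI mice 1 to 4, and 14.69, 14.62, 14.68 and 14.75 in sham-operated mice 1 to 4. All MI mice were above all sham-operated mice. In limma the log2 fold change was 0.55 (standard error 0.10, 95% interval 0.32 to 0.78), a 1.46-fold difference, with an adjusted p of 0.0215 and an exact permutation p of 0.0286. Within the 2 rows of arrays on the slide, with 2 mice of each group per row, it was 0.47 and 0.62. The fold change stayed between 0.50 and 0.65 with each mouse left out in turn, but the adjusted p in limma then ran from 0.00176 to 0.0764, and the call held without MI replicate 2 alone. Scaling to the 75th percentile gave 0.42 (adjusted p = 0.0571 in limma), and the authors' normalized values gave 0.54 (adjusted p = 0.0978 in limma).

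Rpl3l, the paralogue that replaces Rpl3 in ribosomes of heart and skeletal muscle, showed no such difference with the spike-in normalization. Its log2 signal was 14.16, 13.52, 14.15 and 13.87 in MI mice 1 to 4, and 14.21, 13.60, 14.15 and 13.99 in sham-operated mice 1 to 4. These values overlapped, and the replicates numbered 2 were the lowest in both groups. The log2 fold change was -0.07 (standard error 0.18, 95% interval -0.47 to 0.34, adjusted p = 0.942 in limma). Scaling to the 75th percentile gave -0.20 (adjusted p = 0.195 in limma), and all MI mice then lay below all sham-operated mice. The overlap of the groups therefore depended on the scaling. The authors' normalized values gave -0.07.

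The difference between Rpl3l and Rpl3 on the same array was tested directly, since for bright probes it does not depend on the scale given to an array. With the mean of the sham-operated mice set to 0, the log2 difference was -0.48, -0.72, -0.45 and -0.82 in MI mice 1 to 4, and 0.21, -0.32, 0.17 and -0.06 in sham-operated mice 1 to 4. The groups did not overlap. Rpl3l relative to Rpl3 was lower by a log2 difference of -0.61 in MI mice (exact permutation p = 0.0286), with values from -0.72 to -0.54 when each mouse was left out. After adjustment over the 7 pairs of paralogue and parent gene tested, the exact permutation p was 0.0667, the lowest that 3 pairs at the smallest p could share.

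Rpl7l1 is a relative of Rpl7 whose yeast counterpart works in the assembly of the large subunit. It was dim, with a mean intensity of 471, and its log2 signal was 9.71, 9.37, 9.75 and 9.59 in MI mice 1 to 4 and 9.14, 9.02, 9.21 and 9.21 in sham-operated mice 1 to 4. The groups did not overlap. The log2 fold change was 0.46 (standard error 0.10, 95% interval 0.24 to 0.67), with an adjusted p of 0.0377 in limma and an exact permutation p of 0.0286. It was 0.53 after scaling to the 75th percentile (adjusted p = 0.0142 in limma) and 0.64 in the authors' normalized values (adjusted p = 0.0522 in limma). With each mouse left out, it stayed between 0.41 and 0.53, and the call held without MI replicate 2 alone, with adjusted p-values in limma from 0.00808 to 0.118.

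Rpl7, the ribosomal protein itself, had log2 signals of 16.71, 16.32, 16.59 and 16.65 in MI mice 1 to 4 and 16.43, 16.54, 16.76 and 16.63 in sham-operated mice 1 to 4, which overlapped. In limma its log2 fold change was -0.02, with a standard error of 0.11 and an adjusted p of 0.972. Rpl7l1 relative to Rpl7 on the same array was higher in MI mice by a log2 difference of 0.48 (exact permutation p = 0.0286, adjusted 0.0667).

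**Figure D4:**
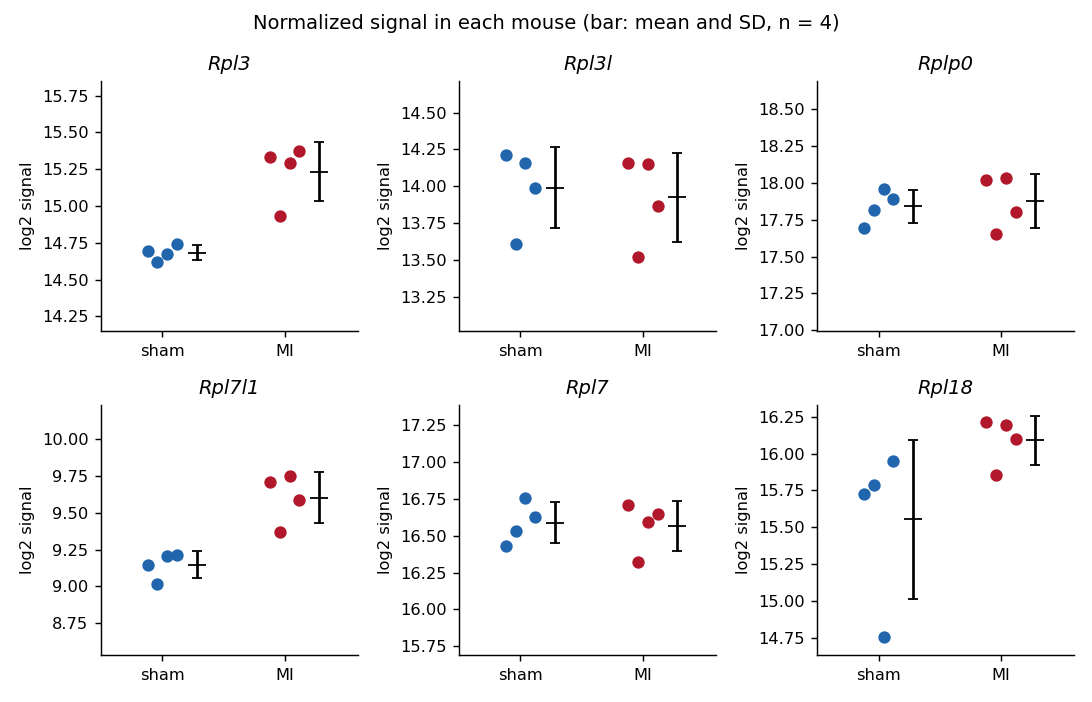
Normalized log2 signal of Rpl3, Rpl3l, Rplp0, Rpl7l1, Rpl7 and Rpl18 in each of 4 sham-operated (blue) and 4 MI mice (red), with the mean and SD as black bars; every vertical axis spans the same range. The groups are apart for Rpl3 and Rpl7l1 and overlap for the other genes, and 1 sham-operated mouse is far below the rest for Rpl18.

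Of the 9 pairs of paralogue and parent gene listed, 7 had retained probes for both. Groups did not overlap for 3 pairs. The last of these was Rps27l, a homologue of Rps27 known as a p53 target, which relative to Rps27 was higher by 0.19 in MI mice (exact permutation p = 0.0286, adjusted 0.0667). Its margin was very small: with the sham mean set to 0, the lowest MI value was 0.0346 and the highest sham value 0.0334. With scaling to the 75th percentile, the groups of this pair overlapped. For Rps27l itself the log2 fold change was -0.01 and for Rps27 it was -0.20, neither called. Rpl39l, known from testis, relative to Rpl39 differed by -0.25 (exact permutation p = 0.0571), and Rps4l relative to Rps4x by 0.21 (exact permutation p = 0.0857). Rpl39l, with a mean intensity of 65.2, and Rpl7l1, with 471, were dim, so the differences of their pairs also depend on the additive constants. For Rpl36al and Rpl36a the difference was 0.15 (exact permutation p = 0.2), and for Rpl22l1 and Rpl22 it was 0.11 (exact permutation p = 0.371). Rpl10l, a germline copy of Rpl10, was not well above background on any array in either of its 2 probes, and Rps27rt had no probe by this mapping. Processed copies of ribosomal protein genes can be near-identical, and the specificity of the probes was not analysed here.

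**Figure D5:**
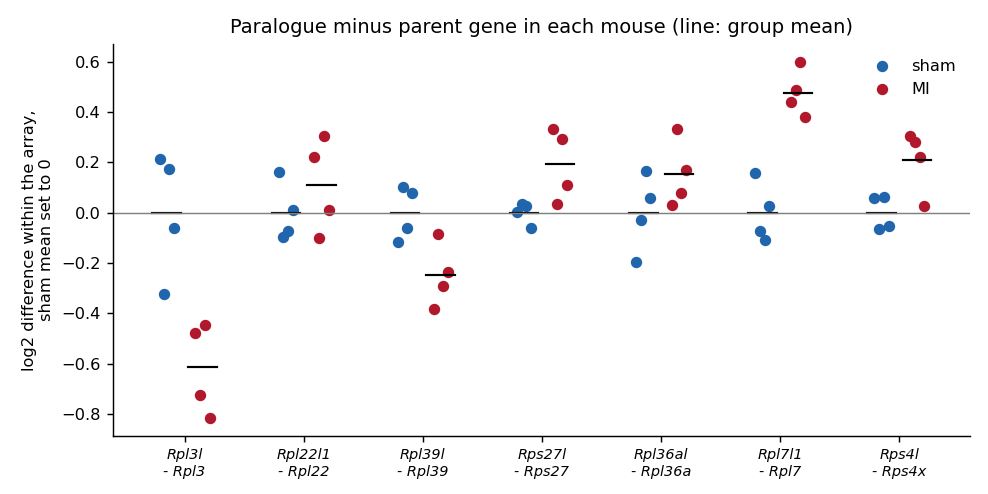
Log2 difference between a paralogue and its parent gene on the same array, with the mean of the sham-operated mice set to 0, for 7 pairs in each of 4 sham-operated (blue) and 4 MI mice (red), with lines at group means. The MI mice lie below all sham-operated mice for Rpl3l and Rpl3, and above them for Rpl7l1 and Rpl7 and, by a small margin, for Rps27l and Rps27.

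Among the other genes with high fold changes, Rpl18, a protein of the large subunit, rested on a single mouse. Its log2 signal was 16.21, 15.85, 16.19 and 16.10 in MI mice 1 to 4 and 15.72, 15.79, 14.75 and 15.95 in sham-operated mice 1 to 4. The groups overlapped, and sham replicate 3 lay far below the rest. In limma the log2 fold change was 0.54 with a standard error of 0.24 (adjusted p = 0.343), and it was 0.27 without sham replicate 3.

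Rps2, at the mRNA entry of the small subunit, had log2 signals of 16.95, 16.58, 16.99 and 16.77 in MI mice 1 to 4 and 16.61, 16.32, 16.54 and 16.53 in sham-operated mice 1 to 4. MI replicate 2 lay below sham replicate 1, so that the groups overlapped. In limma the log2 fold change was 0.32, with a standard error of 0.11 and an adjusted p of 0.169. For Rpl15 it was 0.29 (standard error 0.09, adjusted p = 0.159 in limma), while a second, dimmer probe of the same gene gave -0.02. Without MI replicate 2, both genes passed, with log2 fold changes of 0.41 for Rps2 (adjusted p = 0.0411 in limma) and 0.38 for Rpl15 (adjusted p = 0.0145 in limma). Leaving out this mouse also raised the calls at any fold from 1271 to 2270 of the 34038 retained probes. Rpl13 followed with 0.26 (adjusted p = 0.345 in limma).

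At the lower end, no gene passed. Rps21, of the small subunit, had log2 signals of 15.76, 15.40, 15.67 and 15.68 in MI mice 1 to 4 and 15.49, 16.14, 16.003 and 15.79 in sham-operated mice 1 to 4, which overlapped. In limma its log2 fold change was -0.23, with a standard error of 0.14 and an adjusted p of 0.550. Next came Rps27 with -0.20, Rps10 with -0.20, Rps9 with -0.19, Rpl39l with -0.18 and Rpl37a with -0.17, all with adjusted p-values over 0.05 in limma. Rpl39l was close to background with a mean intensity of 65.2, and without additive constants its log2 fold change was larger, -0.92 after scaling to the 75th percentile (adjusted p = 0.116 in limma).

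The stalk proteins, which recruit translation factors to the large subunit, showed no difference beyond the spread between mice. Rplp0, often used as a reference gene in quantitative PCR, had log2 signals of 18.02, 17.65, 18.03 and 17.80 in MI mice 1 to 4 and 17.70, 17.82, 17.96 and 17.89 in sham-operated mice 1 to 4. The groups overlapped, with a log2 fold change of 0.04 (SE 0.10, 95% interval -0.20 to 0.27). Its partners Rplp1 and Rplp2 had log2 fold changes of 0.03 and -0.02. For Rpsa, the 40S protein also described as a laminin receptor, it was 0.06.

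Members with a known role outside or in the control of the ribosome were also close to 0. Rps6, the 40S protein phosphorylated by the S6 kinases, had log2 signals of 16.77, 16.31, 16.70 and 16.48 in MI mice 1 to 4 and 16.33, 16.55, 16.70 and 16.51 in sham-operated mice 1 to 4, which overlapped, and a log2 fold change of 0.04. Rpl5 and Rpl11, which bind Mdm2 together with 5S rRNA when assembly of ribosomes is disturbed, had -0.15 and 0.05. Rps27a, made as a fusion with ubiquitin, had 0.04, and Rpl13a, released from the ribosome in interferon-treated monocytes to silence inflammatory mRNAs, had 0.08. Rps19, mutated in Diamond-Blackfan anaemia, had 0.04, and Rpl38, needed for translation of Hox mRNAs, had 0.04. Rps3, also linked to DNA repair, had -0.07 and Rpl10a, the protein tagged to pull down ribosomes from chosen cells, had 0.09. Rpl32 and Rps18, frequent reference genes, had -0.10 and 0.08. None of these was called, with adjusted p-values of 0.698 or higher in limma.

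The symbol rule leaves out some proteins of the ribosome. Fau, which encodes a ubiquitin-like protein fused to a 40S protein, had a log2 fold change of -0.13, and Rack1, the scaffold on the head of the 40S subunit, had -0.03. Neither was called, with adjusted p-values of 0.658 or higher in limma.

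Several probes were available for 50 of the 84 genes, up to 7 per gene, and they showed how far a fold change depends on the probe. The range of log2 fold changes between probes of a gene had a median of 0.0748 and was over 0.25 for 4 genes. For Rpl15 it was 0.31, and its dimmer probe, with a mean intensity of 1801, gave -0.02 where the brighter gave 0.29. For Rpsa the range was 0.27, with probes between 0.05 and 0.32. Signs differed between probes for 16 genes, among them Rpl10, Rpl13a, Rpl14, Rpl15, Rpl17, Rpl23, Rpl24, Rpl27a, Rpl36a, Rpl7, Rpl7a, Rps15, Rps15a, Rps25 and Rps3. Rpl3 and Rpl7l1 had their calls on the 2 probes called among the 169 retained probes of the family. Rpl3, Rpl3l and Rpl7l1 had 1 retained probe each, so no second probe could be set beside their values.

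Because the genes shared their shifts between mice, the arrays were also centred on the median of the 84 genes, an alternative chosen after seeing the data. The median SD within groups then fell from 0.168 to 0.0801 on the log2 scale. Groups did not overlap for 17 of the 84 genes, where 9.46% of all probes had such groups. Centring on these same genes takes out the variation they share by construction, so these shares cannot be compared. The 6 higher genes all had Rpl symbols, Rpl3, Rpl18, Rpl7l1, Rpl15, Rpl13 and Rpl29, with log2 differences from the family of 0.20 to 0.51. Rpl7l1, the relative of Rpl7, was counted to the large subunit by its symbol alone. Rps2 of the small subunit had 0.28, more than Rpl15, Rpl13 and Rpl29, but its groups overlapped. The 11 lower genes comprised 7 of the small subunit, among them Rps10, Rps9, Rps14, Rps24 and Rps20, and 4 of the large, Rpl37a, Rpl36, Rpl34 and Rpl26. Their log2 differences lay between -0.24 and -0.08. Only Rpl3 (adjusted p = 0.0104 in limma) and Rpl7l1 (adjusted p = 0.0311 in limma) passed, where 7.21% of all probes were called in either direction.

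Lists of genes that accompany the ribosome in its expression or control spread more widely than the family itself. Taking the brightest probe of each of 15156 genes, limma called 4.86% higher and 0.528% lower in MI mice. Of 23 measured mRNAs outside the ribosome with a TOP motif, such as elongation factors, 1 rose, Hnrnpa1, an RNA-binding protein of splicing, with a log2 fold change of 0.49 (adjusted p = 0.0425 in limma). Its call held in 2 of 8 cases with a mouse left out, and the authors' values gave 0.52 (adjusted p = 0.127 in limma). None fell, 15 of the 23 lay within 0.25 of 0, and the median was 0.02, close to the 0.03 over all probes. Of 21 genes of mTORC1 and S6 kinase control, 1 rose, Rps6ka3, which encodes the kinase RSK2, with 0.81 (adjusted p = 0.0228 in limma); sham replicate 4 had no value and was left out of that fit. Its call held in 4 of 8 cases with a mouse left out. Among these 4 was the fit without sham replicate 4, which took away no value of Rps6ka3. The authors' values gave 0.49 for this gene (adjusted p = 0.656 in limma). No gene of this list fell, 11 of the 21 lay within 0.25 of 0, and the median was 0.15. The 1 called gene in each of these lists is close to the share over all genes.

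Of 18 genes for chaperones and quality control of ribosomal proteins, 2 rose, where 4.86% of all genes did, and none fell. Grwd1 encodes the chaperone that binds newly made Rpl3. Its log2 signal was 11.07, 10.75, 11.15 and 10.85 in MI mice 1 to 4, and 10.21, 9.50, 10.004 and 10.04 in sham-operated mice 1 to 4. The groups did not overlap, and limma gave a log2 fold change of 1.02 with a standard error of 0.16 (adjusted p = 0.0100). The call of Grwd1 held with each mouse left out, with log2 fold changes from 0.87 to 1.105, and the authors' values gave 1.18 (adjusted p = 0.00178 in limma). For Ipo7, an importin that carries ribosomal proteins into the nucleus, the fold change was 0.68 on the log2 scale (adjusted p = 0.0215 in limma). Its call held in 3 of 8 cases with a mouse left out, while the authors' values gave 1.097 (adjusted p = 0.00271 in limma). Of the 18 genes, 10 lay within 0.25 of 0, and the median of the list was 0.13.

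Among markers of other cells, those of neutrophils differed most between the groups. Of 9 measured neutrophil genes, 7 rose, where 4.86% of all genes did. Among them were Retnlg with a log2 fold change of 3.92 (adjusted p = 0.000539 in limma) and S100a8 with 2.99 (adjusted p = 0.000164 in limma). The log2 of the summed signal of the 9 genes was 17.96 to 18.50 in MI mice and 16.29 to 16.90 in sham-operated mice. Among 9 genes of monocytes and macrophages, 2 rose, Cd14 by 2.08 and Ccr2 by 0.59. Means were higher in MI mice for 6 of the 9, the median was 0.15 and the lowest value was -0.38. Their summed level was 15.35 to 15.90 in MI mice and 15.15 to 15.96 in sham-operated mice. None of 12 cardiomyocyte genes was called, with a median of -0.06 and a summed level of 21.33 to 21.91 in MI mice and 21.48 to 21.94 in sham-operated mice. None of 8 fibroblast, 7 endothelial, 4 T cell and 4 B cell genes was called by limma, and of 4 smooth muscle genes Acta2 alone was called, with a rise of 1.45. Of these 4 smooth muscle genes, 2 had higher means in MI mice. Their median was 0.18 and the lowest value was -0.13, for Myh11. The median of the fibroblast genes was -0.39, with higher means in MI mice for 2 of the 8. The calls of all 7 neutrophil genes and of Cd14 held with each mouse left out, that of Ccr2 in 5 and that of Acta2 in 3 of 8 cases. Ly6g, Cd68 and Trac had no probe by this mapping, and the probes of Cd3g and Pax5 were well above background on none of the arrays. The part of these cells in the levels of Rpl3, Rpl7l1 and Grwd1 was not tested.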

How the data were processed

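RNA of 8 mouse ventricles was measured, 1 array per mouse, in groups taken from the labels. The deposited intensities are, per the file headers, processed signals of Feature Extraction 11.0.1.1 with local background and spatial trends removed. The log2 values deposited by the authors were normalized between arrays on spike-in probes with limma and vsn. Here, the vsn likelihood was refitted to 234 spots of 7 spike-in probes with an own implementation. Outlier spots, control probes and probes detected on fewer than 4 arrays were left out. RefSeq accessions gave 26582 probes a gene symbol. MI and sham-operated mice were compared in limma 3.58.1 (R 4.3.3) without covariates, with Benjamini-Hochberg adjustment over 34038 probes. Python 3.11.15, numpy 2.4.6, scipy 1.17.1, pandas 2.3.3 and matplotlib 3.10.9 were used otherwise.

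The members, gene lists and tests were chosen with earlier results of these data known. Genes named in the text are the stalk proteins, Rpl3 and Rpsa, paralogue pairs, the 6 highest and 6 lowest fold changes, members of known role, genes whose probes disagreed in sign, ribosomal proteins with other symbols, and the 2 largest called changes of each list. Single probes of Rpl15 and Rpsa and the genes apart after centring were named after their values were seen. The alternatives were scaling to the 75th percentile, a spike-in shift alone, quantile normalization, normexp with an offset of 50 on median intensities, the authors' values, other detection filters, significance analysis of microarrays, the methods' t-test, all probes of a gene, members without paralogues, blocks for replicate number and slide row, and each mouse left out. The scanner headers name build mm9, so no gene coordinates are given with it. A few genes that these rules name are not reported here, though they remain in all counts.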

Additional observations from a re-analysis of the deposited data

Results flagged for a closer look

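Among 76 groups of 4 mice, from 38 named ribosomal protein genes in MI and sham-operated mice, 2 held a mouse whose gap to the nearest other mouse was larger than chance usually gives. Chance alone gives about 1 in 20 such groups. For Rpl36a, sham replicate 2 had a log2 signal of 14.66, while the other sham-operated mice lay between 14.49 and 14.51. For Rps4x, MI replicate 2 had a log2 signal of 14.50, beside 14.87 to 14.92 in the other MI mice.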

How the results depend on the processing

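The median log2 fold change of the family stayed within the spread between mice, no member fell and no member passed a fold over 2 under any alternative run. The count of members higher in MI mice, 2, became 1 with scaling to the 75th percentile, with no detection filter and without paralogues. It became 0 with the spike-in shift alone, normexp, the authors' values and significance analysis of microarrays. The t-test with Benjamini-Hochberg adjustment also left 0. Before adjustment, 4 of the 84 members had a t-test p under 0.05, as did 4336 of the 34038 retained probes. With each mouse left out, the count of higher members ran from 0 to 4. It was 4 without MI replicate 2 and 0 with any 1 of the other mice left out. Over all probes, the 1271 calls at any fold became 5973 with scaling to the 75th percentile, 6142 with quantile normalization, 2119 with normexp, 2032 with the authors' values, 636 with significance analysis of microarrays, 516 with the t-test, 2455 with arrays centred on the family (chosen after seeing the data), and 588 to 2270 with a mouse left out. The 333 calls over 2-fold became 1444, 1411, 609 and 1012 with the first 4 of these and 1520 with the spike-in shift alone. Of the paralogue pairs other than Rpl3l and Rpl3, 2 had an exact permutation p under 0.05, and 1 did with scaling to the 75th percentile, the spike-in shift alone, quantile normalization, normexp or the authors' values, and 1 to 3 with a mouse left out. The pair lost with scaling to the 75th percentile was Rps27l and Rps27. For Rpl3l relative to Rpl3 the difference stayed between -0.72 and -0.54, and its exact permutation p was 0.0571 with any 1 of the MI mice left out and 0.0286 with any 1 of the sham-operated mice left out. The cause of these changes was not tested.

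Same-numbered mice of the groups correlated in their deviations at 0.277, 0.364, 0.087 and 0.001. MI replicates 1 and 2 matched the sham-operated mouse of their own number best, while MI replicates 3 and 4 did not. The labels name no pairs, and the main fit took none. Whether the numbers mark a shared step was not tested. With the replicate block, 4935 of the 34038 retained probes were called at any fold. Of the 84 members, 3 were higher, Rps2 among them (adjusted p = 0.0192 in limma). Rpl3l relative to Rpl3 had an exact permutation p of 0.125, the smallest that 4 pairs allow.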
